A study of Homo sapiens with 6 samples.

Results

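Major histocompatibility complex (MHC) class I antigen presentation was described through 9 genes of the count table. They were chosen by symbol, with earlier results of these data known. They were the heavy chains HLA-B, HLA-C, HLA-E and HLA-F with their light chain B2M. The others were the peptide transporter genes TAP1 and TAP2, the tapasin gene TAPBP and the transactivator gene NLRC5. The table held 31831 genes, and all 9 were among the 17142 genes that had enough counts to be tested. Class I molecules show short peptides from inside the cell to CD8+ T cells. Peptides cut by the proteasome are pumped into the endoplasmic reticulum by the TAP heterodimer, loaded onto a heavy chain and B2M with the help of tapasin, and carried to the cell surface. Renal tubule epithelium carries class I molecules, and interferons and NF-kB are known to raise them.

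The cells were HK-2, an established and immortalized line of human proximal tubule epithelium, kept in 30 mM glucose for 72 h. The control group (HG-NC, n = 3) carried an empty lentiviral vector, and the other group (HG-OE, n = 3) carried a lentivirus that overexpresses hnRNP-F, an RNA-binding protein of the splicing machinery. Both groups shared the cell line, the high glucose and the exposure to virus, so glucose itself was not compared here. Poly(A) RNA was sequenced in directional libraries that held 25507595 to 29444841 counted pairs. Levels are given as CPM (counts scaled to library size with TMM factors), which does not correct for gene length, or as the deposited FPKM, which does. Differences are log2 fold changes of HG-OE against HG-NC with their standard errors (SE). Each adjusted p is that of the quasi-likelihood test of edgeR after Benjamini-Hochberg adjustment across the 17142 genes tested. In bulk RNA, fewer cells of a type and less RNA per cell cannot be told apart.

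The targeted gene was measured first. HNRNPF (chr10:43385617-43409186, minus strand) had 304, 319 and 311 CPM in HG-NC and 431, 452 and 423 CPM in HG-OE. The groups did not overlap, and the gene rose by 0.48 on the log2 scale (SE 0.0388, adjusted p = 2.80e-07). Reads of the construct and of the endogenous gene cannot be told apart in these counts. The gene ID given for the construct in the methods may be that of mouse, in which case its reads may be counted only in part, so this rise may not measure all hnRNP-F RNA. Of the renal tubule markers, PAX8 had 637 ± 29.9 CPM in HG-NC and KRT18 206 ± 1.01 CPM (SD, n = 3). The proximal tubule markers AQP1, ANPEP and LRP2 were at or near 0. Of 16 such markers 12 were tested, with 3 higher in HG-OE, 3 lower and 6 not past the threshold. Over all genes tested, 25.9% were called in each direction. On the log2 scale KRT8 (1.35), KRT18 (0.76) and CDH16 (0.61) rose. In HG-OE replicates 1 to 3, KRT8 had 629, 653 and 983 CPM and KRT18 had 277.5, 282.4 and 487.8 CPM, so replicate 3 was far the highest. CDH16 had 68.8, 69.1 and 56.6 CPM there, with replicate 3 lowest. EPCAM (-0.56), KRT19 (-0.55) and PAX8 (-0.51) fell. The library HG-OE replicate 3 stood apart: its log2 CPM correlated at 0.987 with the other 2 HG-OE libraries, which correlated at 0.995 with each other. The 16 liver markers summed to 825 CPM in that library against 462 and 464 CPM in the other HG-OE libraries and 266 to 278 CPM in HG-NC. SERPINA1 made up 457 and 458 CPM of the sums in HG-OE replicates 1 and 2, and was 395 CPM in replicate 3. ALB was at 149 CPM in replicate 3 and at most 2.79 CPM elsewhere, and 11 squamous markers summed to 62.8 CPM against 5.82 and 4.53. Their part in the class I values was not tested. Without HG-OE replicate 3, 6 class I genes were called higher, as with all libraries. Of the other pathway genes, 21 were then higher and 24 lower, also as with all libraries. The genes behind these counts could still differ, as PSMB6 changed its call.

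The sequences upstream of 3 heavy chain genes are shown because class I promoters share a compact array of boxes. The boxes are those for NF-kB, interferon regulatory factors, the RFX and CREB/ATF factors and NF-Y. The 3 genes rose by different amounts, and a link between sequence and expression was not tested. The stretches run from 200 bases before the RefSeq start (GRCh38.p14) to the first base that any transcript of the gene counts as exon, or to 41 bases before the start. Capitals mark matches to CCAAT (NF-Y), TGACG (CREB/ATF), GGGNNTTCC (NF-kB), GAAANNGAA (interferon regulatory factors) or TTCNNNGAA (STAT), searched on both strands.
HLA-B, chr6:31357294-31357379, minus strand: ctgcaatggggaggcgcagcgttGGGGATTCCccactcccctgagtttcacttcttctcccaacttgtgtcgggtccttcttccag
HLA-C, chr6:31272133-31272292, minus strand: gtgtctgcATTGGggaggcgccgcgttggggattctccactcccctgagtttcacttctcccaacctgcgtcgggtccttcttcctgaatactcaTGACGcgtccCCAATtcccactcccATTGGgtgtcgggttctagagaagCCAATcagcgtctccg
HLA-F, chr6:29723234-29723305, plus strand: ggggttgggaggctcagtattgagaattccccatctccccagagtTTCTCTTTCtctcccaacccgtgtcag

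Over the full stretch from 200 to 41 bases before the start, HLA-B and HLA-C were identical in 87.2% of aligned columns, HLA-B and HLA-F in 79.6%, and HLA-C and HLA-F in 79.5%. An exact match to GGGNNTTCC was found in HLA-B, 177 bases before its start, and not in HLA-C or HLA-F. The printed stretches of HLA-C and HLA-F hold the similar runs ggggattct and gagaattcc, which the exact search does not mark. An exact match to GAAANNGAA was found in HLA-F and not in HLA-B or HLA-C. After the letters gagt, where HLA-F holds this match, the printed stretches of HLA-B and HLA-C hold the run ttcacttct. The exact search does not mark that run either, so a box for interferon regulatory factors may be missed. In the 250 bases before the start, CCAAT was found in HLA-B, HLA-C, HLA-F, B2M and TAP1, and in 32.0% of 35116 promoters of the table. TGACG was found in HLA-B, HLA-C, B2M and TAP2, against 21.2% of all promoters. GAAANNGAA was found in HLA-F, B2M, TAP1, TAP2 and TAPBP, against 6.88%, and as a pair of overlapping matches in B2M, TAP1 and TAPBP. GGGNNTTCC was found in HLA-B and TAPBP, against 5.78%, and TTCNNNGAA only at the second start of TAP1, against 6.57%. Promoters of 7 of the 9 genes were matched, and HLA-E and NLRC5 were not among them. A match is a run of letters and not a measured binding site.

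Expression of the class I genes was higher in HG-OE for 6 of 9, lower for 0 and not past the threshold for 3. HLA-F, HLA-C, TAPBP, HLA-B, TAP1 and B2M rose, in that order of size, while HLA-E, TAP2 and NLRC5 did not pass. Over all genes tested, 51.8% were called at an adjusted p under 0.05, with 25.9% higher and 25.9% lower. These shares include genes with few counts, whereas the 9 genes averaged 184 to 16000 counts per library, so the 2 are not matched for depth. The groups did not overlap for 6 of the 9 genes, against 59.0% of all genes tested, so separation of the groups alone was common in these libraries. None of the 9 genes changed by 2-fold or more, a size that 5.82% of all genes reached. The median log2 fold change was 0.16 over the 9 genes and 0.011 over all genes tested. Without HG-OE replicate 3, 6 genes were higher and 0 lower. With limma on FPKM, without HG-NC replicate 3 or without HG-OE replicate 1, 4 were higher, because B2M and TAP1 no longer passed.

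**Figure D1:**
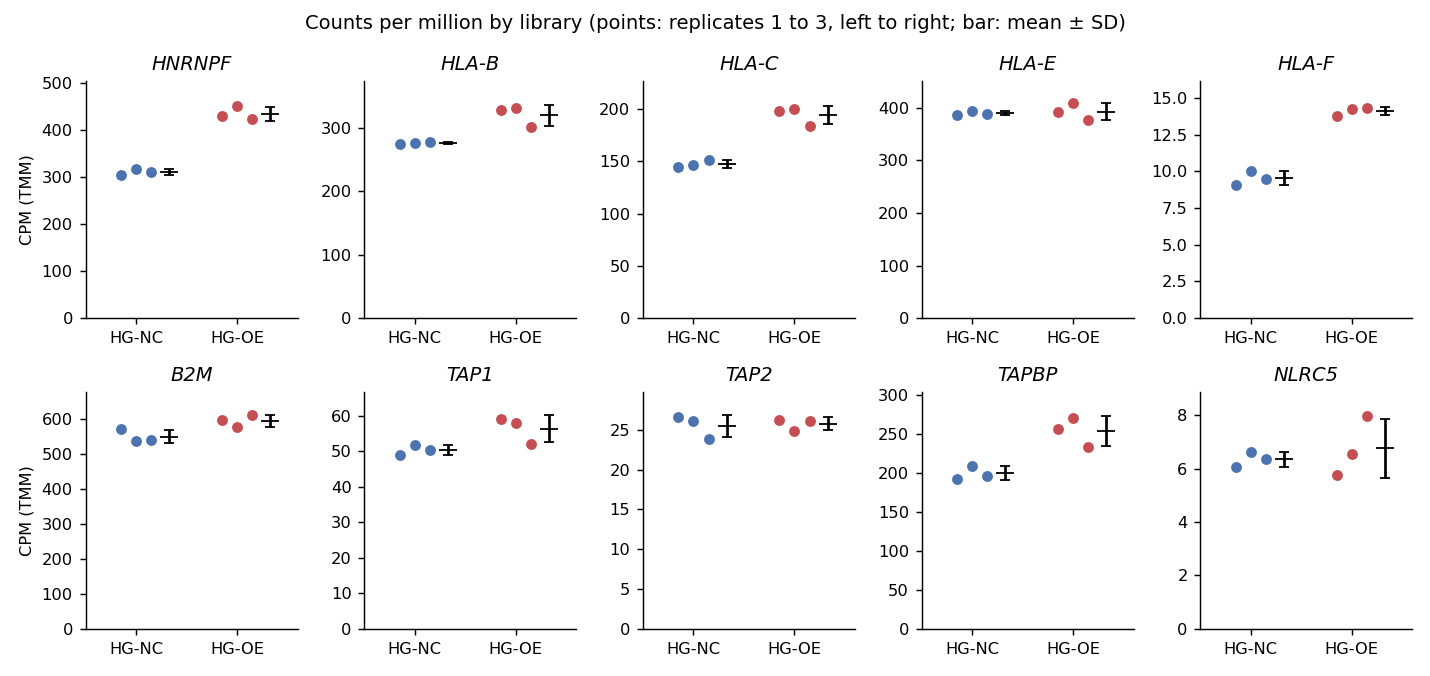
CPM after TMM scaling (vertical axes, from 0) of HNRNPF and the 9 class I genes in each HG-NC library (blue, n = 3) and HG-OE library (red, n = 3), with the mean ± SD as a bar beside each group. The groups are apart for HLA-B, HLA-C, HLA-F, B2M, TAP1 and TAPBP and overlap for HLA-E, TAP2 and NLRC5.

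The heavy chains were taken first. HLA-F (ENSG00000204642.14, chr6:29722775-29738528, plus strand), a non-classical heavy chain that stays largely inside resting cells, had the largest difference of the 9 genes. Its CPM was 9.09, 10.1 and 9.45 in HG-NC and 13.8, 14.2 and 14.3 in HG-OE. Every HG-OE library was above every HG-NC library, and the spread within each group was small. It rose by 0.57 on the log2 scale (SE 0.0856, adjusted p = 8.68e-05), and by 0.56 without HG-OE replicate 3. The level was low, at 1.98 ± 0.10 FPKM in HG-NC and 2.89 ± 0.0503 FPKM in HG-OE (SD, n = 3). HLA-F overlaps the antisense gene HLA-F-AS1, which had 50 to 102 counts per library and a log2 fold change of 0.73. Without a strand setting stated for the counting, reads of such a pair cannot be told apart.

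HLA-C (ENSG00000204525.17, chr6:31268749-31272130, minus strand) is a classical heavy chain that also serves as a ligand of inhibitory receptors on natural killer cells. It had 145, 146 and 152 CPM in HG-NC and 199, 200 and 184 CPM in HG-OE. HG-OE replicate 3 was the lowest of its group and still stood above all controls. The log2 fold change was 0.40 (SE 0.0431, adjusted p = 4.43e-06), a rise of 31.8%. Without HG-OE replicate 3 it was 0.44.

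HLA-B (ENSG00000234745.13, chr6:31353872-31367067, minus strand), a classical heavy chain and the most variable of the class I loci among people, rose less. Its CPM was 275, 276 and 279 in HG-NC and 328, 332 and 301 in HG-OE. The control libraries were almost level, and HG-OE replicate 3 again lay lowest in its group but above the controls. This was a rise of 0.21 on the log2 scale, or 15.9% (SE 0.0420, adjusted p = 7.55e-04), and of 0.26 without HG-OE replicate 3.

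HLA-E (ENSG00000204592.9, chr6:30489509-30494194, plus strand) presents leader peptides of other class I chains to the CD94/NKG2 receptors of natural killer cells. It had 386, 394 and 389 CPM in HG-NC and 393, 408 and 376 CPM in HG-OE. The highest and the lowest library both belonged to HG-OE, so the groups overlapped. The log2 fold change was 0.011 (SE 0.0387, adjusted p = 0.827), or 0.041 without HG-OE replicate 3, and its sign changed with the processing.

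Because FPKM divides by length, the heavy chains could be set against each other on that scale. HLA-E had 119 ± 1.30 FPKM in HG-NC and 119 ± 4.54 in HG-OE, HLA-B 82.1 ± 0.932 and 94.1 ± 4.84, and HLA-C 52.6 ± 1.53 and 68.6 ± 3.12. The order HLA-E, HLA-B, HLA-C, HLA-F held in both groups. The summed FPKM of the 4 heavy chains was 252, 256 and 259 in HG-NC and 290, 293 and 270 in HG-OE. Within that sum the share of HLA-E went from 46.6% ± 0.388 to 41.8% ± 0.459, while HLA-C went from 20.6% ± 0.361 to 24.1% ± 0.180, HLA-B from 32.1% ± 0.160 to 33.1% ± 0.347 and HLA-F from 0.772% ± 0.0352 to 1.02% ± 0.0594. The libraries of the 2 groups did not overlap in any of the 4 shares, which add to 100 and so are not independent. These shares were described without a test.

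Heavy chain genes resemble each other, so the sequence they share was counted. Of 50-base windows of the main transcript, 2.56% in HLA-B, 6.76% in HLA-C, 6.16% in HLA-E and 1.89% in HLA-F also occur in transcripts of other genes, and 0% of 150-base windows did. The reads were aligned to a reference genome that carries 1 allele at each locus, and the alleles of HK-2 are not given in the sources used here. How this moved the level of 1 locus against another was not tested.

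B2M (ENSG00000166710.21, chr15:44711358-44718851, plus strand), the light chain without which class I chains do not reach the surface, had 570, 537 and 539 CPM in HG-NC and 596, 576 and 610 CPM in HG-OE. The groups did not overlap, but HG-NC replicate 1 and HG-OE replicate 2 were close. The log2 fold change was 0.12 (SE 0.0385, adjusted p = 0.0215), a rise that passed in 7 of 14 alternatives, with values of 0.097 to 0.15 when 1 library was left out. Set against B2M in the same library, HLA-C had an FPKM ratio of 0.552, 0.593 and 0.612 in HG-NC and 0.724, 0.757 and 0.656 in HG-OE. HLA-C thus took a higher ratio in every HG-OE library, with a log2 difference of 0.28 (exact two-sided permutation p = 0.1, the smallest that 3 against 3 can give). The ratio of HLA-F to B2M also separated the groups, with a log2 difference of 0.45 (exact permutation p = 0.1).

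For HLA-B the ratio to B2M was 0.874, 0.931 and 0.937 in HG-NC and 0.996, 1.04 and 0.894 in HG-OE. These overlapped, with a log2 difference of 0.096 (exact permutation p = 0.3). The ratio of HLA-E to B2M differed by -0.11 (exact permutation p = 0.2), with values of 1.26 to 1.37 in HG-NC and 1.15 to 1.32 in HG-OE. Over the 9 ratios computed, the Benjamini-Hochberg adjusted values ran from 0.18 to 0.7, so the design could not bring any of them past the threshold.

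**Figure D2:**
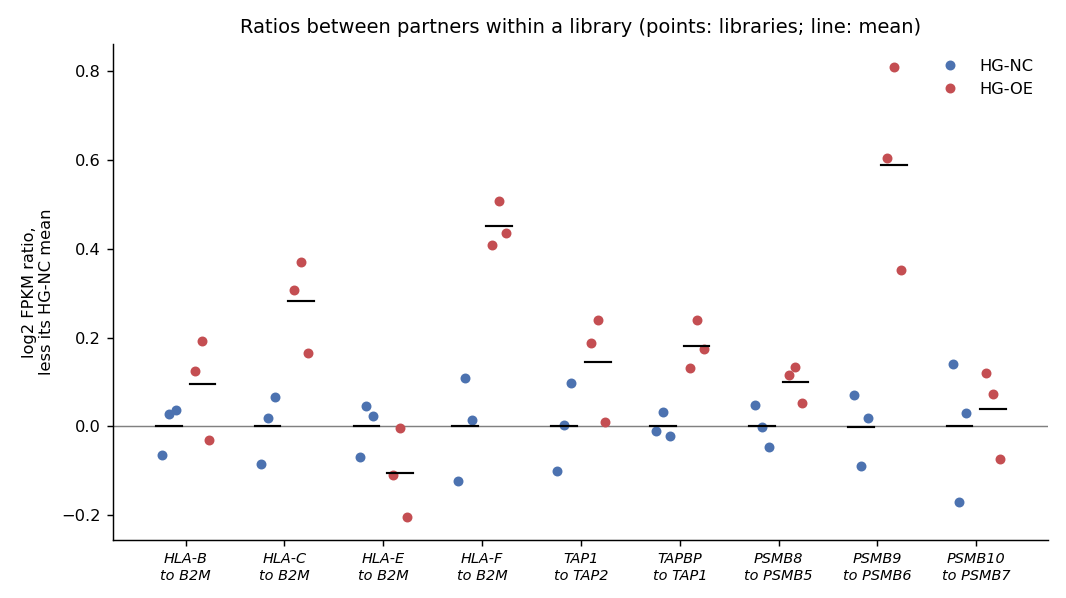
Log2 FPKM ratio of partner genes in each library (points), less the HG-NC mean of that ratio, for HG-NC (blue, n = 3) and HG-OE (red, n = 3), with group means as lines. The groups are apart for HLA-C to B2M, HLA-F to B2M, TAPBP to TAP1, PSMB8 to PSMB5 and PSMB9 to PSMB6, with differences of 0.28, 0.45, 0.18, 0.10 and 0.59.

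**Figure D3:**
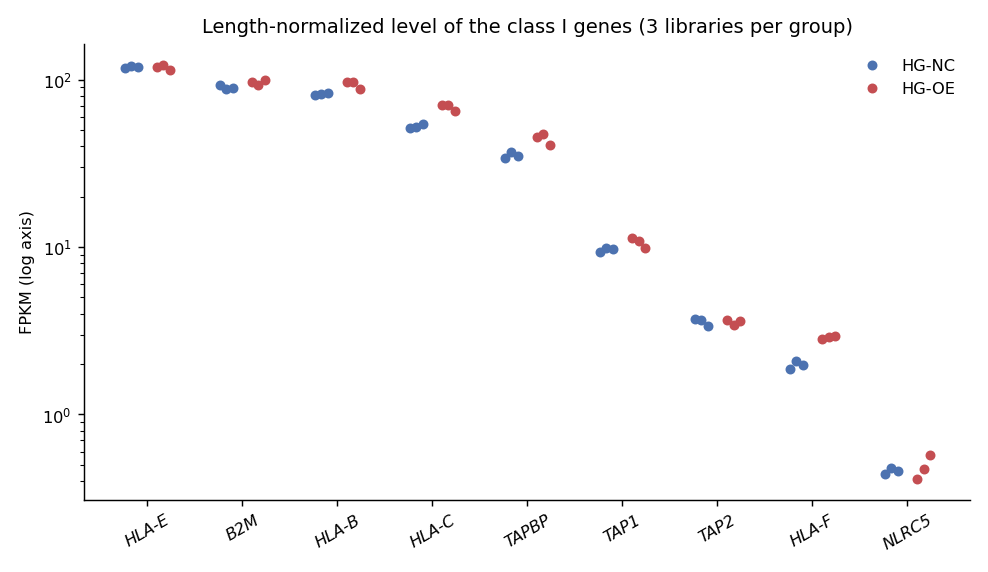
FPKM (log axis) of the 9 class I genes in each HG-NC (blue, n = 3) and HG-OE (red, n = 3) library, ordered by the HG-NC mean. Levels run from 119 FPKM for HLA-E to 0.460 FPKM for NLRC5 in HG-NC, a wider range than any difference between the groups.

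The TAP transporter is a heterodimer of the TAP1 and TAP2 chains, and tapasin bridges it to the empty class I molecule. TAPBP (ENSG00000231925.12, chr6:33299694-33314284, minus strand), which encodes tapasin, had 192, 209 and 197 CPM in HG-NC and 257, 271 and 233 CPM in HG-OE. All HG-OE libraries lay above the controls, with replicate 3 nearest to them. TAPBP rose by 0.35 (SE 0.0534, adjusted p = 1.07e-04), and by 0.40 without HG-OE replicate 3.

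TAP1 (ENSG00000168394.12, chr6:32845209-32853816, minus strand) had 48.9, 51.6 and 50.4 CPM in HG-NC and 59.1, 57.8 and 52.1 CPM in HG-OE. The groups met almost edge to edge, at HG-NC replicate 2 and HG-OE replicate 3. The log2 fold change was 0.16 (SE 0.0558, adjusted p = 0.0245). It passed in 7 of 14 alternatives and reached 0.22 without HG-OE replicate 3. TAP1 lies wholly inside the span of PSMB9 on the opposite strand, a gene that also rose, so the caution on strand holds here too.

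TAP2 (ENSG00000204267.16, chr6:32821833-32838739, minus strand) had 26.6, 26.1 and 23.9 CPM in HG-NC and 26.3, 24.8 and 26.2 CPM in HG-OE. The groups overlapped throughout, with a log2 fold change of 0.015 (SE 0.0633, adjusted p = 0.854). Of the 150-base windows of its transcript, 34.1% also occur in a readthrough gene (ENSG00000250264) that had 1060 to 1534 counts per library and a log2 fold change of 0.16 (adjusted p = 0.0397), so the TAP2 count may not hold all reads of the locus. The FPKM ratio of TAP1 to TAP2 was 2.53, 2.72 and 2.90 in HG-NC and 3.09, 3.20 and 2.73 in HG-OE (log2 difference 0.15, exact permutation p = 0.2). The ratio of TAPBP to TAP1 was 3.61, 3.73 and 3.59 in HG-NC and 3.99, 4.30 and 4.11 in HG-OE. Here the groups did not overlap, with a log2 difference of 0.18 (exact permutation p = 0.1).

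NLRC5 (ENSG00000140853.16, chr16:56989485-57083531, plus strand) encodes the transactivator that works with the RFX complex at class I promoters. It had 6.06, 6.61 and 6.37 CPM in HG-NC and 5.76, 6.56 and 7.96 CPM in HG-OE, from 154 to 233 counts per library. The HG-OE libraries spanned the controls on both sides, and the highest was HG-OE replicate 3. The log2 fold change was 0.090 (SE 0.132, adjusted p = 0.594), and -0.044 without that library. With this SE, a change of the size seen in HLA-B was not detectable in these libraries. The genes whose log2 CPM was most like that of NLRC5 over the 6 libraries were COPG1, ANKRD52 and OSBP2 (Pearson's r of 0.993, 0.991 and 0.984 among 11465 candidates). For B2M they were RP11-644F5.10, KIAA0232 and RAP1A (r of 0.999, 0.996 and 0.995). With 6 points in 2 groups, 3.72% of all candidates correlated with B2M above 0.9, so these values describe a shared order of libraries only.

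The other genes of the pathway were taken from lists of 76 genes, of which 73 were tested: 21 were higher, 24 were lower and 28 did not pass, with a median log2 fold change of -0.019. A single gene, ULBP1, changed by 2-fold. Over all genes tested the share was 25.9% in each direction, and the counts of each list below stand beside that share.

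The immunoproteasome replaces catalytic subunits of the standard proteasome and favours cuts that suit class I grooves. Of 6 genes in this list with its activator, 4 were higher, 0 lower and 2 did not pass, with a median of 0.25. PSMB9 had 23.3, 20.2 and 22.3 CPM in HG-NC and 30.2, 32.8 and 30.5 CPM in HG-OE, a rise of 0.51 (SE 0.0677, adjusted p = 2.97e-05). PSMB8 had 87.9, 87.5 and 86.8 CPM against 115, 116 and 111 CPM, a rise of 0.38 (SE 0.0394, adjusted p = 3.14e-06). For both, the HG-OE libraries were close together and far from the controls. The activator subunits PSME1 and PSME2 rose by 0.27 and 0.23, whereas the remaining catalytic subunit PSMB10 had a log2 fold change of 0.13 (adjusted p = 0.285) and the assembly factor POMP 0.0079 (adjusted p = 0.911).

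Of 12 standard proteasome genes, 6 were higher and 3 lower, with a median of 0.087. PSMB5, the partner that PSMB8 replaces, rose by 0.28, and PSMC1, a base subunit, rose by 0.19. PSMB1 fell by 0.19 and PSMA3 fell by 0.13, the latter in 7 of 14 alternatives. The FPKM ratio of PSMB9 to PSMB6, the subunit it replaces, was 0.0683, 0.0611 and 0.0658 in HG-NC and 0.0988, 0.114 and 0.0830 in HG-OE. Every HG-OE library was higher, with a log2 difference of 0.59 (exact permutation p = 0.1), or 0.71 without HG-OE replicate 3. PSMB8 to PSMB5 differed by 0.10 (exact permutation p = 0.1) and PSMB10 to PSMB7 by 0.040 (exact permutation p = 0.7). In each library the standard subunit was the more abundant per length.

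Peptide loading and trimming genes went in both directions, with 5 of 12 genes higher, 4 lower and a median of 0.045. CANX, the chaperone calnexin that holds newly made heavy chains, rose by 0.50 (SE 0.0331, adjusted p = 5.00e-08), in a region that rose by nearly as much, as given with the neighbours. ERAP2 and ERAP1 are aminopeptidases that trim peptides in the endoplasmic reticulum, and they moved in opposite directions. ERAP2 rose by 0.39 (SE 0.0420, adjusted p = 4.53e-06) and ERAP1 fell by 0.23 (SE 0.0534, adjusted p = 2.36e-03). LNPEP, a trimming peptidase of endosomes that serves cross-presentation, fell by 0.52 (SE 0.0450, adjusted p = 5.40e-07). In the loading complex itself, PDIA3 rose by 0.17 (adjusted p = 2.92e-03) and CALR fell by 0.11 (adjusted p = 0.0354).

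**Figure D4:**
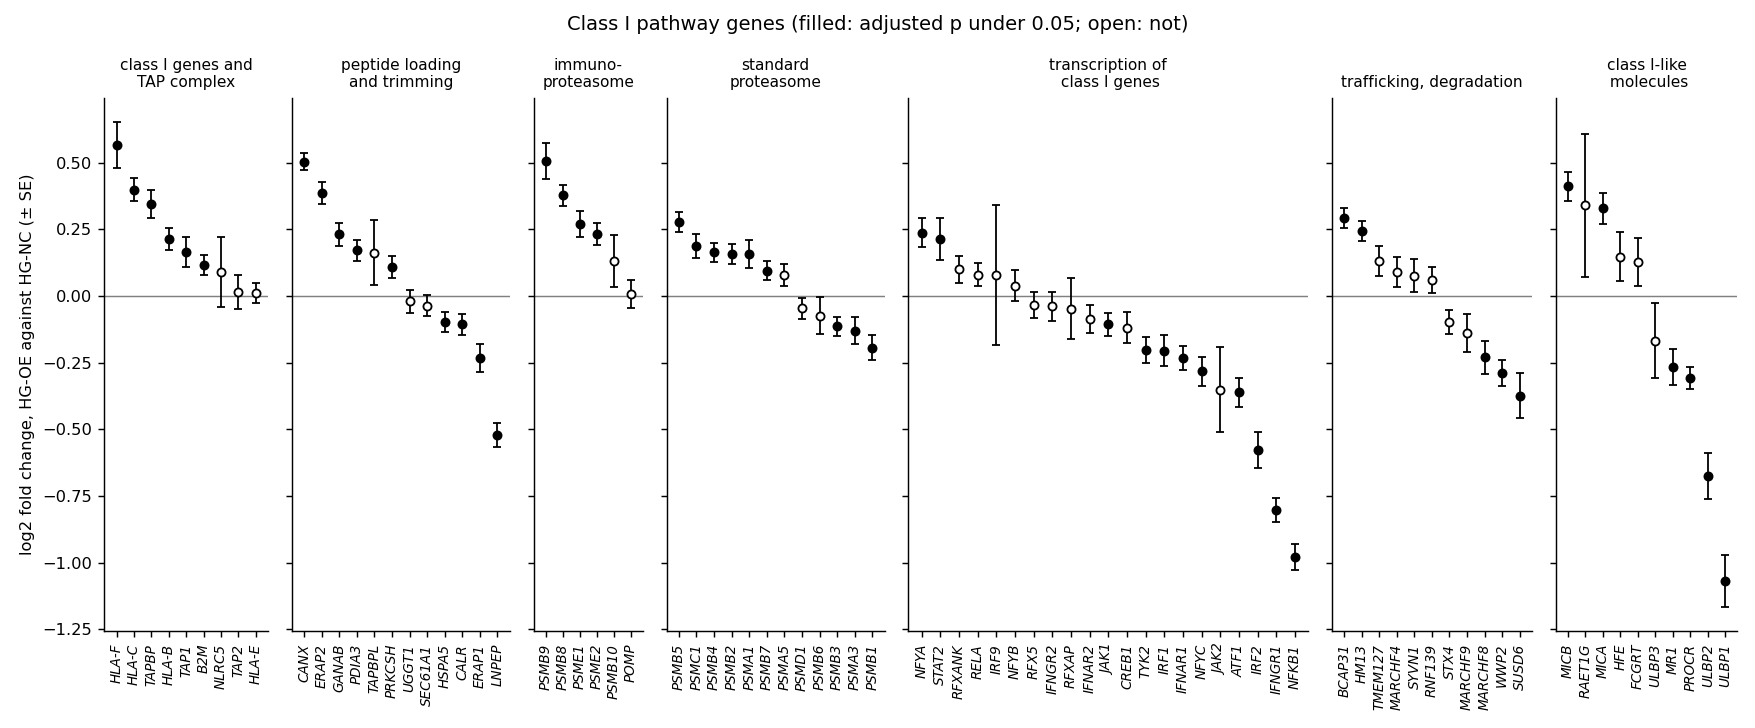
Log2 fold change of HG-OE against HG-NC (vertical axis, ± SE from the edgeR fit, n = 3 per group) for the 9 class I genes (left panel) and genes of 6 pathway lists, sorted within each list. Filled points passed an adjusted p under 0.05. The 6 filled points of the left panel and the 4 of the immunoproteasome panel all lie above 0, while 9 of the 11 filled points of the transcription panel lie below it.

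The transcription list holds the factors and interferon receptors that act on class I promoters. Of its 22 genes, 2 were higher, 10 lower and 10 did not pass, with a median of -0.11. The share over all genes tested was 25.9% in each direction. NFKB1, the p50 subunit of NF-kB, had the largest fall, from 112 ± 3.25 to 56.7 ± 2.83 CPM (SD, n = 3), a log2 fold change of -0.98 (SE 0.0475, adjusted p = 3.25e-09). IFNGR1, a chain of the interferon-gamma receptor, fell from 181 ± 5.62 to 104 ± 5.45 CPM, a log2 fold change of -0.80 (SE 0.0458, adjusted p = 1.36e-08). RELA, another NF-kB subunit, had a log2 fold change of 0.080 (adjusted p = 0.142). IFNGR2, the other chain of that receptor, had -0.039 (adjusted p = 0.571). A link between the genes of this list and the class I values was not tested. Among the other falls that passed the test were IRF2 (-0.58), ATF1 (-0.36), NFYC (-0.28), IFNAR1 (-0.23), IRF1 (-0.20), TYK2 (-0.20) and JAK1 (-0.11). NFYA, a subunit of the CCAAT-binding NF-Y, rose by 0.24, and STAT2, a part of the factor downstream of type I interferon, rose by 0.21, the latter in 7 of 14 alternatives. The RFX subunits, which NLRC5 works with, had log2 fold changes of -0.034 for RFX5 (adjusted p = 0.601), -0.047 for RFXAP (adjusted p = 0.755) and 0.099 for RFXANK (adjusted p = 0.105).

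Of 11 genes of class I trafficking and degradation, 2 were higher and 3 lower. BCAP31, which escorts class I out of the endoplasmic reticulum, rose by 0.29 (adjusted p = 2.63e-05). HM13, the signal peptide peptidase that frees the leader peptides shown by HLA-E, rose by 0.24 (adjusted p = 7.30e-05). SUSD6 and WWP2, which act together in the removal of class I from the surface, fell by 0.37 (adjusted p = 2.03e-03) and 0.29 (adjusted p = 2.31e-04). TMEM127, which works with these, had a log2 fold change of 0.13 (adjusted p = 0.0631).

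Class I-like molecules share the fold but mostly present no peptide. Of 13 genes 10 were tested, 2 were higher and 4 lower. The stress ligands of the NKG2D receptor went in both directions. MICB rose from 77.8 ± 3.89 to 104 ± 7.15 CPM (log2 fold change 0.41, adjusted p = 2.96e-05) and MICA rose from 54.9 ± 1.55 to 69.0 ± 5.36 CPM (0.33, adjusted p = 2.88e-04). ULBP1 fell from 12.1 ± 0.481 to 5.79 ± 0.194 CPM (-1.07, adjusted p = 9.79e-07), and ULBP2 fell from 19.0 ± 1.72 to 11.9 ± 0.294 CPM (-0.68, adjusted p = 1.83e-05). Of the same family, ULBP3 had a log2 fold change of -0.17 (adjusted p = 0.341) and RAET1G of 0.34 (adjusted p = 0.310). MR1, which presents vitamin metabolites to innate-like T cells, fell by 0.27 and PROCR, the endothelial protein C receptor, fell by 0.31. MICA and MICB lie in the same stretch of chromosome 6 as HLA-B, and the ULBP genes lie on the other arm of that chromosome.

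Neighbouring genes were therefore examined. Of the 9 genes, 7 lie on the short arm of chromosome 6. Between HLA-F and TAPBP, 94 other genes averaged 100 counts or more per library. Of these, 44 were higher, 23 lower and 27 not past the threshold, with a median log2 fold change of 0.12. Over all genes tested, which were not held to that mean count, 25.9% were called in each direction. Within 10 Mb of HLA-B the median of 202 genes with that mean count was 0.090. With the median of its own neighbours removed from each gene (0.062 to 0.090), HLA-C had 0.31, HLA-F 0.49, TAPBP 0.27, HLA-B 0.12, TAP1 0.10, TAP2 -0.055 and HLA-E -0.075. The 111 neighbours of B2M on chromosome 15 had a median of -0.049, which left 0.17 for B2M. Regional medians were removed from the pathway genes too, an alternative chosen after the data were seen. All 21 genes called higher kept a positive value and 20 of the 24 called lower a negative one, but several became small. CANX was left with 0.033 of its 0.50, since 81 neighbours had a median of 0.47. BCAP31 was left with 0.041, HM13 with 0.083, PSME1 with 0.082, PSME2 with 0.045, PSMB5 with 0.090 and PSMC1 with 0.028. PSMB1 turned from -0.19 to 0.092, and IFNAR1 was left with 0.010. PSMB9 and PSMB8 kept 0.44 and 0.32, NFKB1 -0.71 and IFNGR1 -0.41. Around ULBP1 and ULBP2 the medians were -0.41 and -0.42, which left -0.66 and -0.26. The part of these regional shifts in the values of single genes was not tested.

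**Figure D5:**
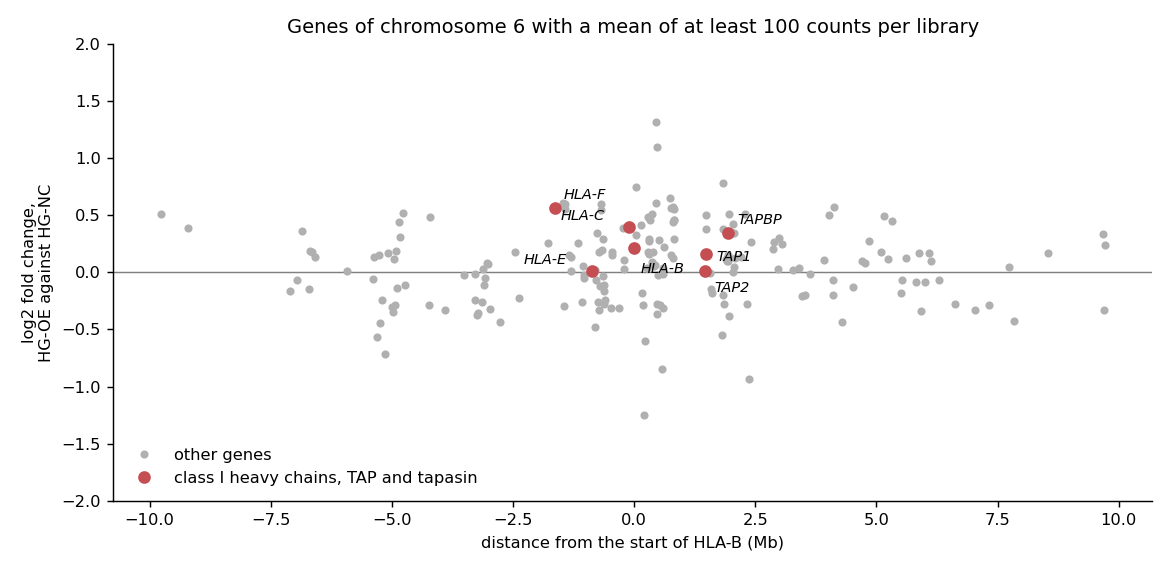
Log2 fold change of HG-OE against HG-NC (vertical axis) of 203 genes on chromosome 6 that averaged 100 counts or more per library, against the distance of each gene's midpoint from the start of HLA-B in Mb (horizontal axis). Of these, 7 are the class I heavy chains, TAP and tapasin (red), which lie between 0.011 and 0.57 among neighbours (grey) on both sides of 0.

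Class I pseudogenes lie in the same stretch of the chromosome. HLA-H rose by 0.61 (SE 0.0991, adjusted p = 1.57e-04) and HLA-V rose by 0.82 (adjusted p = 2.09e-03), whereas HLA-K fell by 0.30 (adjusted p = 0.0487). Their levels were 1.92 to 15.1 CPM in HG-NC, and reads of near copies may be split among them and the heavy chain genes.

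Markers of cells that could bring class I RNA with them were measured in the same libraries. The 14 leukocyte markers in the table summed to 12 to 13.4 CPM in HG-NC and 9.82 to 20.6 CPM in HG-OE, with the highest value in HG-OE replicate 3. CD14 made up 14.6 CPM of that sum. The defining genes PTPRC, CD3E and CD2 were at or near 0 in all libraries, with group means of at most 0.0572 CPM. Of the 5 leukocyte markers tested, CD14 was higher, while CSF1R fell from 4.59 to 2.22 CPM (-1.05, adjusted p = 5.54e-04) and FCER1G from 3.80 to 2.12 CPM (-0.84, adjusted p = 1.14e-03). In HG-OE replicate 3, HLA-B, HLA-C, HLA-E, TAP1 and TAPBP were at their lowest of the group, and B2M, HLA-F and NLRC5 at their highest. Without it, B2M had 0.097 in place of 0.12.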

How the data were processed

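RNA of 3 HG-NC and 3 HG-OE libraries, grouped by their labels, was analysed. The 30 mM glucose and the 72 h come from the study's methods. Per the submitters' processing notes and the methods, the reads were trimmed by the authors, placed on GRCh38 by HISAT2 and counted per gene where they mapped uniquely. The annotation release and the strand setting of the counting are not given in the sources used here. The authors deposited these counts without normalization, and FPKM values that scale the counts by gene length and library size. The methods name ComBat_seq, and whether it entered these values is not stated there.

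Counts were fitted with edgeR 4.0.16 in R 4.3.3 (TMM, filterByExpr, quasi-likelihood test, Benjamini-Hochberg adjustment, threshold 0.05). The filter kept 17142 of 31831 genes. Ratios of FPKM were compared by exact two-sided permutation, whose smallest p is 0.1 for 3 against 3. The study speaks of biological replicates and of parallel wells in each group. The labels do not say how far the cultures were separate, so p-values measure the spread between these samples. Alternatives were DESeq2 1.42.0 (its test, and its size factors), limma 3.58.1 on log2(FPKM + 1) or log2(FPKM + 0.1) with or without a minimum mean FPKM of 0.1, no filter or a minimum of 10 counts in all libraries, a block for the replicate number, leaving out 1 library at a time, and the median of neighbours within 10 Mb removed. The edgeR, DESeq2 and limma fits were tested on simulated data. Gene positions are those of GENCODE 44 (GRCh38), and promoters those of RefSeq (GRCh38.p14).

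The genes and lists were chosen with earlier results of these data known. From each pathway list the text names the genes with the largest rises and falls that averaged at least 100 counts, with complex partners and, chosen after their values were seen, further list members. A few genes that enter the counts of the lists are not reported here by name.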

Additional observations from a re-analysis of the deposited data

How the results depend on the processing

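HLA-B, HLA-C, HLA-F and TAPBP kept their direction and passed the threshold in all 14 alternatives with a test. B2M and TAP1 kept their direction and passed in 7 of 14. HLA-E, TAP2 and NLRC5 passed in 0 of 14. The count of the 9 genes called higher was 4 to 6, and 0 were lower or changed 2-fold in any alternative.

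HLA-E turned to -0.0035 with no filter, to -0.0053 with limma on log2(FPKM + 1), with or without the filter, and on log2(FPKM + 0.1), and to -0.018 without HG-OE replicate 2, in a range of -0.018 to 0.041 with 1 library left out. The range was -0.027 to 0.048 for TAP2 and -0.044 to 0.19 for NLRC5, and the ratio of PSMB10 to PSMB7 ranged from -0.046 to 0.11. The cause of these changes of sign was not tested. Genes with a 2-fold change numbered 997 in all, against 1539 with no filter, 617 with 10 counts in every library, 144 with limma on log2(FPKM + 1) and 138 with that and no filter, the last 2 with fold changes shrunk by the pseudocount.

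With the replicate number as a block, 8849 genes were called against 8887, and 6 class I genes were higher. Deviations of same-numbered libraries correlated at -0.0273, 0.0301 and -0.000993, so the numbers did not pair the samples. With the median of neighbours removed, PSMB1 turned from -0.19 to 0.092, and the other such values stand in the report. Depth limits NLRC5 most, at 154 to 233 counts per library.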

Other observations

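The class II pathway was measured beside class I. Of 12 genes 5 were tested, and 1 was higher. CD74, the invariant chain that guards the class II groove, measured 81.8, 84.9 and 83.3 CPM in the control libraries and 155, 153 and 139 CPM with the construct. It rose by 0.84 on the log2 scale (SE 0.0468, edgeR's quasi-likelihood test, adjusted p = 1.13e-08), and by 0.89 without HG-OE replicate 3. With the median of its 92 neighbours (0.42) removed, 0.42 was left, against 0.49 for HLA-F on that scale. CIITA, the class II transactivator, went from 0.915 ± 0.297 to 1.01 ± 0.0855 CPM (SD, n = 3; adjusted p = 0.717), and HLA-DRA had 1, 2 and 5 counts in HG-NC and 0, 1 and 16 counts in HG-OE, the last in the library that stands apart. HLA-DMB, a chaperone of class II peptide loading, had a log2 fold change of -0.0096 (adjusted p = 0.879).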
